A study of Mus musculus with 30 samples.

Results

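The region described here is chromosome 7 from 72.5 to 74.5 Mb (GRCm39), the 2 Mb around Chd2, in mouse livers treated with a transposon vector. It was chosen by its piggyBac (PB) density against its Sleeping Beauty (SB) density in these same livers. The PB to SB difference in density is therefore given below as a description with no test, and it supports nothing. The region held 1406 of the 2181704 insertion records on nuclear chromosomes, 962 in PB livers and 444 in SB livers. A record is 1 position and strand in 1 liver. The 2 Mb before the region (70.5 to 72.5 Mb) held 1593 records and the 2 Mb after it (74.5 to 76.5 Mb) held 1589.

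The study treated Fah knockout mice, a model of type 1 tyrosinaemia (TT1), with a therapeutic transposon delivered in vivo, and PB served as the vector in one group of animals and SB in the other. Genomic DNA of 17 PB livers and 13 SB livers was taken at the end of the monitoring period, and insertion sites were read by streptavidin-based enrichment sequencing, which amplifies the junction between transposon and genome. All 30 animals lack Fah, an enzyme of tyrosine breakdown. The labels give neither age, sex, dose nor time, and no untreated liver is among the samples. Each liver is 1 animal, and the DNA came from whole-liver lysate, so cell types were not separated. Hepatocytes whose vector restores Fah are known to outgrow uncorrected cells in this model, so the livers hold the sites that were present after that growth, not all sites at the time of insertion. The PB livers held 16364 to 124238 nuclear records each and the SB livers 4893 to 120219. SB liver 13 was the smallest and held 2 records in the region. No 2 libraries of a group shared more than 7.83% of the smaller library's records in PB or 0.47% in SB.

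PiggyBac and Sleeping Beauty are DNA transposons that a transposase cuts out of a plasmid and joins to a chromosome. PiggyBac joins at the motif TTAA, which is its own reverse complement and so can take an insert in either orientation, and is known to favour open chromatin and gene starts. Sleeping Beauty joins at TA and is known for a more even spread over the genome. The deposited sites were 4 bp wide in PB and 2 bp wide in SB. Chd2 encodes a chromatin remodeller of the CHD family, and Chaserr, a long noncoding RNA gene beside it, is known to restrain Chd2 expression. In the RefSeq gene order of the previous mouse assembly (GRCm38.p6), the stretch from Mctp2 to Slco3a1 holds 32 genes, of which 6 code for protein, 15 are long noncoding RNA genes and 9 are pseudogenes. The protein-coding genes are, in order, Mctp2, Rgma, Chd2, Fam174b, St8sia2 and Slco3a1. Rgma encodes a membrane-anchored guidance molecule that also acts as a co-receptor for bone morphogenetic proteins. St8sia2 encodes a sialyltransferase that makes polysialic acid, and Slco3a1 encodes an organic anion transporter. That assembly differs from the one used for the sites, so no site is placed inside or outside a gene here.

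Over the whole region, PB livers had more insertions than SB livers once each liver was scaled to its own depth. The density was 8.20 ± 1.69 sites per 10000 nuclear sites (SD, n = 17) in PB and 4.57 ± 0.90 (SD, n = 13) in SB. The ratio of the means was 1.79, and the mean difference on the scale of log2(density + 0.1) was 0.83. With positions of more than 1 liver left out, that difference was 0.43. PB livers ran from 5.66 to 11.6 with a median of 8.27, and SB livers from 2.53 to 5.92 with a median of 4.61. In 15 of the 17 PB livers the density was above that of the highest SB liver. The numbers behind these densities are small: 14 to 98 records a liver in PB and 2 to 59 in SB.

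The 2 Mb on either side differed from the region and from each other. Before the region the order was turned: the density was 6.58 ± 1.32 (SD, n = 17) in PB and 8.09 ± 1.00 (SD, n = 13) in SB, a log2 difference of -0.31. After the region PB was again the higher, at 8.50 ± 1.4 (SD, n = 17) against 5.79 ± 1.25 (SD, n = 13), a log2 difference of 0.56. PB density in the region thus lay between those of its own flanks, and the SB density of the region was the lowest of the 3 SB values. As means over 2 Mb, the PB level of the region was like that of the stretch after it, and the SB level was below both flanks. These means hide an uneven spread within the region. Per 100 kb, PB had 5.32 sites per 10000 in a 90 kb stretch described below and 0.179 in the rest of the region. Its flanks had 0.329 and 0.425. SB had 0.795 in that stretch and 0.202 in the rest, beside 0.404 and 0.289 in its flanks.

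In 10 kb steps the PB excess was narrow. PB had sites in 140 of the 200 steps of the region and SB in 171. PB density was the higher in 64 steps and SB density in 126, and 10 steps were equal. With the steps ordered from the largest PB excess, the first step held 25.5% of the net PB minus SB difference (3.62 sites per 10000), the first 5 held 92.0% and the first 10 held 127%. Values over 100% arise because the remaining steps summed to an SB excess. Those 10 steps held 618 of the 962 PB records (64.2%) and 75 of the 444 SB records (16.9%).

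**Figure D1:**
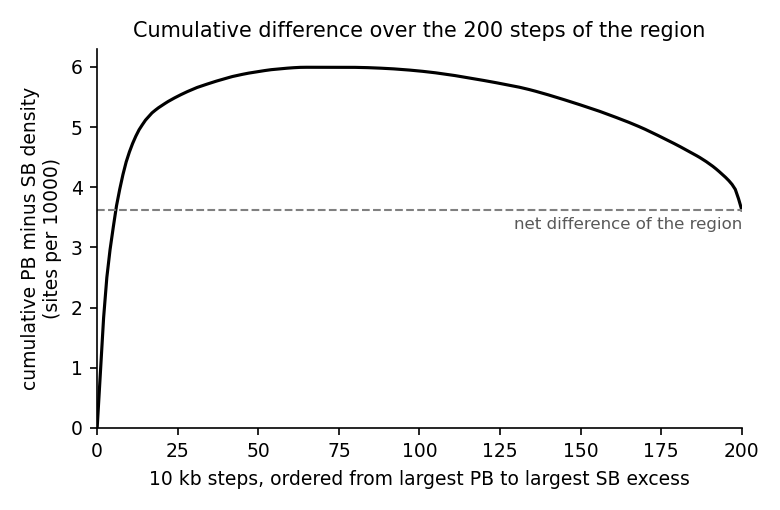
Running sum of the PB minus SB difference in mean density (y axis, sites per 10000 nuclear sites) over the 200 steps of 10 kb, ordered from the largest PB excess to the largest SB excess (x axis, number of steps). The line passes the net difference of 3.62 (dashed) within the first 10 steps, reaches 5.99 and falls back to 3.62 over the steps in which SB was the higher.

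The shortest run of steps that held all of the net difference was 90 kb long, from 73.18 to 73.27 Mb (chr7:73180001-73270000). Its limits were set after its values were seen, so it is described and not tested. PB livers had 565 records there at 243 positions, and SB livers had 73 records at 70 positions. PB density was 4.79 ± 0.93 sites per 10000 (SD, n = 17), from 3.14 to 6.90, and SB density was 0.716 ± 0.341 (SD, n = 13), from 0 to 1.24. Every PB liver was above every SB liver in this stretch, with a ratio of means of 6.69. PB was the higher in 8 of its 9 steps of 10 kb.

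This 4.5% of the length of the region held 58.7% of its PB records. In single PB livers the share ran from 43.6% to 71.4%, with a median of 59.8%. SB records were also denser there than in the rest of the region, with 16.4% of them in the same 4.5% of length and a median of 15% over livers. The stretch was therefore the dense part of the region for both vector systems, and far more so for PB.

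Because the stretch was cut to hold all of the net difference, the rest of the region could show no PB excess by construction, and its values are given only as levels. The remaining 1910 kb held 3.41 ± 1.14 PB sites per 10000 (SD, n = 17) and 3.86 ± 0.83 SB sites (SD, n = 13), a log2 difference of -0.20. PB livers ran from 2.13 to 6.11 and SB livers from 1.93 to 5.10, so the groups overlapped over nearly their whole range. SB was the higher in 125 of the outside steps, PB in 56, and 10 were equal. The steps that touch the stretch were still rich in PB: the step from 73.17 Mb held 37 PB and 6 SB records, and the step from 73.27 Mb held 22 and 3.

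**Figure D2:**
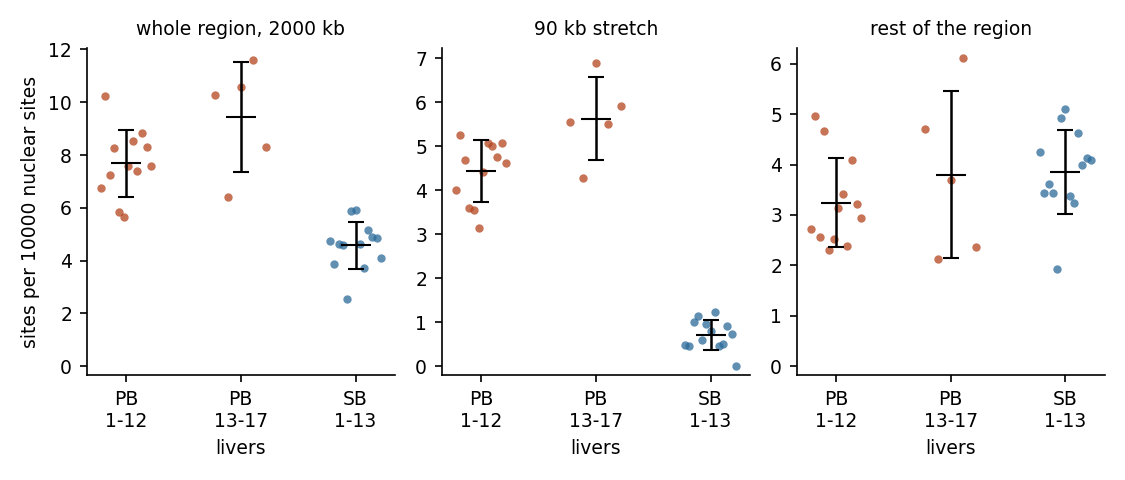
Density of insertion sites per 10000 nuclear sites (y axis) in the whole region, the 90 kb stretch and the remaining 1910 kb, with 1 point per liver and the mean with SD in black. PB livers are drawn as 1 to 12 and 13 to 17. PB and SB are apart in the 90 kb stretch, where PB begins at 3.14 and SB ends at 1.24, and overlap in the rest of the region.

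The step from 73.20 to 73.21 Mb had the highest PB density, 0.997 ± 0.428 sites per 10000 (SD, n = 17), with 123 records at 56 positions. All 17 PB livers had a site in it, with 1 to 19 records a liver and a median of 7, and densities from 0.356 to 1.97. SB had 8 records there in 5 of 13 livers, with a mean of 0.0732 ± 0.116 (SD, n = 13) and a highest liver at 0.374. The lowest PB liver was below the highest SB liver, so the groups touched in this step.

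Next came the step from 73.25 to 73.26 Mb, at 0.961 ± 0.398 (SD, n = 17) in PB. Its 108 PB records lay at only 25 positions, and again all 17 livers had one, with densities from 0.55 to 1.97. SB had 5 records in 4 livers, none above a density of 0.286, so the groups did not overlap. The step from 73.18 Mb had 89 PB records in 16 livers (0.705 ± 0.368, SD, n = 17) against 4 SB records in 3 livers. The step from 73.26 Mb had 61 PB records in 15 livers and 8 SB records in 6, and the step from 73.22 Mb had 54 in 14 livers and 7 in 6. In these last 3 steps at least 1 PB liver had no site, so each overlapped with SB.

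In SB the order of steps depended on whether it was read from mean density or from records, since the first places by mean density rested on 1 shallow liver. The step from 72.60 Mb had the highest mean SB density, 0.184 ± 0.563 (SD, n = 13), from 4 records in 3 livers, and no PB record. The step from 72.74 Mb followed at 0.165 ± 0.565 (SD, n = 13), from 2 records in 2 livers. In each of them SB liver 13 stood at 2.04 with a single record, because its whole library was small. The third SB step, from 73.19 Mb, had 19 records in 9 of 13 livers (0.160 ± 0.174, SD, n = 13) and was spread over the most livers of the 3. It lies inside the PB stretch, and PB had 37 records in 15 livers there. In 100 kb steps, those from 73.2 and 73.1 Mb ranked 1 and 2 in SB (63 and 55 records) as they did in PB (467 and 223 records).

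**Figure D3:**
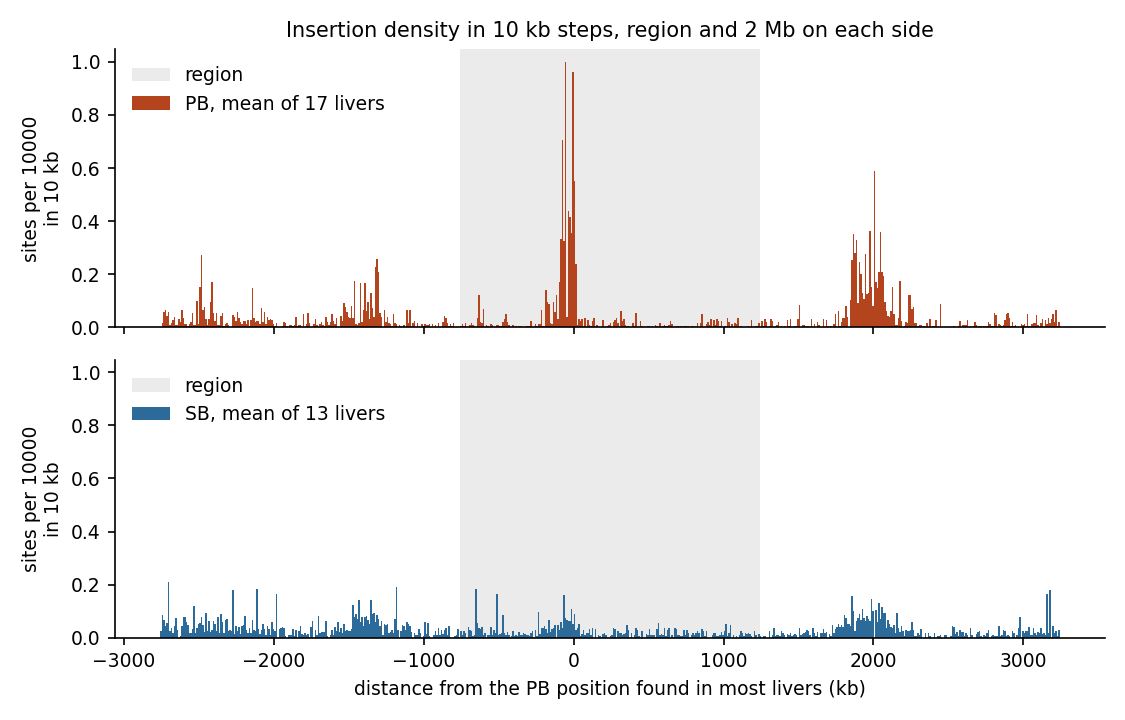
Mean density in 10 kb steps (y axis, sites per 10000 nuclear sites) over the region, shaded, and 2 Mb on each side, against distance in kb from the PB position found in most livers, for 17 PB livers (above) and 13 SB livers (below) on the same scale. PB rises to 0.997 in the dense stretch and to 0.590 in a cluster after the region, while no SB step of the region is above 0.184.

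The flanks held PB clusters of their own. The densest lay after the region in the step from 75.26 to 75.27 Mb, with 70 PB records (0.590 sites per 10000) and no SB record. The step from 75.23 Mb had 40 PB and 5 SB records and that from 75.30 Mb had 43 and 8. Before the region the largest PB excess in a step was at 70.77 Mb, with 33 PB and 8 SB records. At the edges of the region themselves both systems were sparse: the first 100 kb inside the start held 12 PB and 21 SB records and the last 100 kb before the start held 10 and 12. At the end, the last 100 kb inside held 10 PB and 14 SB records and the first 100 kb outside held 18 and 10.

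Among all 245416 steps of 10 kb in the genome that held a site, the step from 73.20 Mb ranked 32nd in mean PB density and the step from 73.25 Mb ranked 36th, against a median over steps of 0.0169. In 100 kb steps, the one from 73.2 Mb ranked 7th of 25904 in PB (4.04 against a median of 0.203) and 4380th in SB (0.638 against 0.330). The share of a 2 Mb window's PB records in its 10 fullest steps was 64.2% here, the 16th highest of 5079 windows with at least 100 PB records, whose median was 29.6%. In SB the same share was 19.8%, rank 350 of 5082, with a median of 15%. These ranks describe the place of a region that was itself picked for its density.

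In a limma-voom fit over all 20887 windows of 100 kb with a mean of at least 1 site, 10 of the 20 windows of the region could be tested. At an adjusted p under 0.05, 2 of them were higher in PB, beside 10.3% of all windows tested, and 1 was higher in SB, beside 14.5% of all windows. As the region was selected on this contrast, nothing is read from these counts. The PB windows were those from 73.1 Mb (log2 difference 1.70, SE 0.25) and from 73.2 Mb (2.43, SE 0.20), and the SB window was that from 73.8 Mb (-1.08, SE 0.40). Without SB liver 13 no window of the region was called higher in SB. Over all windows the median log2 difference was -0.33.

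In 1 kb steps the PB stretch broke up into several peaks. PB had a site in 336 of the 2000 steps and SB in 367, and the 10 steps with the largest PB excess held 63.2% of the net difference, with 268 PB records and 1 SB record. It took 7 steps to reach 50% of the net difference, against 2 steps of 10 kb. Inside the 90 kb stretch, 75 of the 90 steps had a PB site and 42 an SB site. Neighbouring PB positions in the stretch were a median of 161.5 bp apart, and the largest gap was 4282 bp. The stretch was thus filled along its length, with peaks on top.

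The highest of these peaks ran over adjacent steps near 73.258 Mb. The step from 73.258 Mb held 57 PB records at 7 positions in 16 of 17 livers, at 0.483 ± 0.260 sites per 10000 (SD, n = 17) and from 0 in PB liver 16 to 0.985 in PB liver 15. The step before it, from 73.257 Mb, held 39 records at 8 positions in all 17 livers, at 0.371 ± 0.168 (SD, n = 17) and from 0.0846 to 0.739. Neither step had an SB record. Set against a floor of 3 SB records over the group, the pooled PB density was at least 14.6-fold higher in the first and at least 10.0-fold higher in the second. That floor covers counting error only.

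The step from 73.267 Mb held 38 PB records at 6 positions in 14 livers, with a median density of 0.322 and a highest of 0.611. The step from 73.238 Mb held 21 records in 12 livers and the step from 73.205 Mb held 14 in 10 livers. SB had no record at 73.267 or 73.238 Mb and 1 record at 73.205 Mb. All 5 of these steps lie inside the 90 kb stretch.

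**Figure D4:**
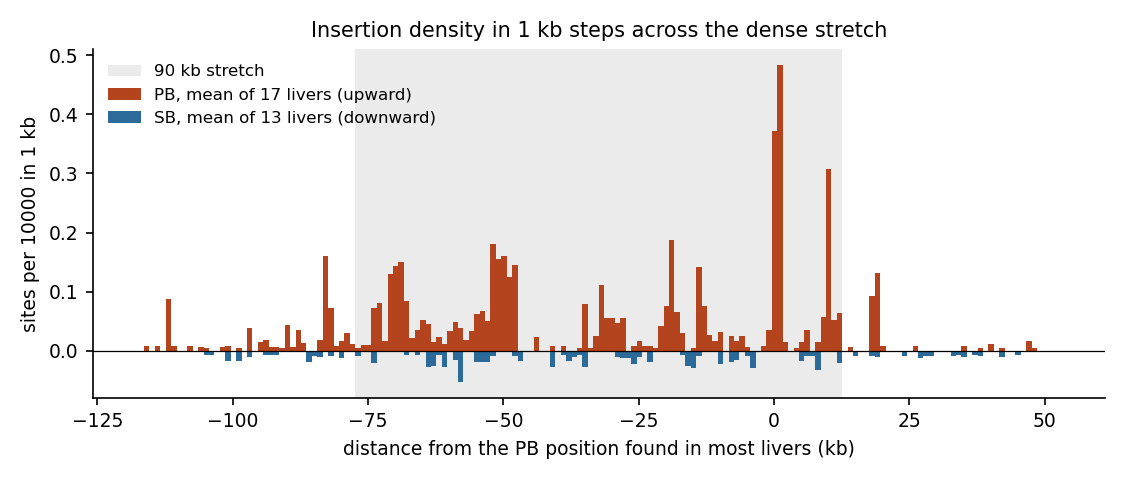
Mean density in 1 kb steps (y axis, sites per 10000 nuclear sites), PB drawn upward and SB downward, against distance in kb from the PB position found in most livers, with the 90 kb stretch shaded. The highest PB step reaches 0.483 and lies beside a second at 0.371, both with no SB record. Lower PB peaks lie elsewhere in the stretch, with sparse steps between them.

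No single position carried the excess. The 962 PB records of the region lay at 576 positions, of which 431 were found in 1 liver, 145 in at least 2, 31 in at least 5 and 9 in at least 8. The 5 positions found in most livers held 65 records, 6.76% of the total, and 122 positions were needed to reach 50% of the records. Of the 31 positions in at least 5 livers, 28 lay in the 90 kb stretch. SB records lay at 435 positions, 427 of them found in 1 liver and 8 in 2 livers, and none in more. Only 1 PB position touched an SB position.

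The PB position found in most livers was chr7:73257390-73257393, with 13 records in 12 of 17 livers, 6 on the plus and 7 on the minus strand. Those livers were PB livers 2, 3, 5, 6, 7, 8, 9, 10, 12, 13, 15 and 16, and liver 5 had it on both strands. The position chr7:73258337-73258340 had more records, 19 in 11 livers, 10 plus and 9 minus, because many livers carried both strands. It was followed by chr7:73258536-73258539 with 12 records in 9 livers, chr7:73243910-73243913 with 9 records in 9 livers, and chr7:73258157-73258160 with 11 records in 8 livers. Of these 5 positions, 3 lie within the 1 kb step from 73.258 Mb. The highest ranked position outside the 90 kb stretch was chr7:73145491-73145494, with 8 records in 8 livers.

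In SB the 8 positions found in 2 livers were tied, each with 2 records, and 3 of the 8 lay in the 90 kb stretch. The 3 that come first by coordinate were chr7:72746035-72746036, in SB livers 1 and 13, chr7:73023367-73023368, in SB livers 7 and 12, and chr7:73060042-73060043, in SB livers 6 and 9.

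**Figure D5:**
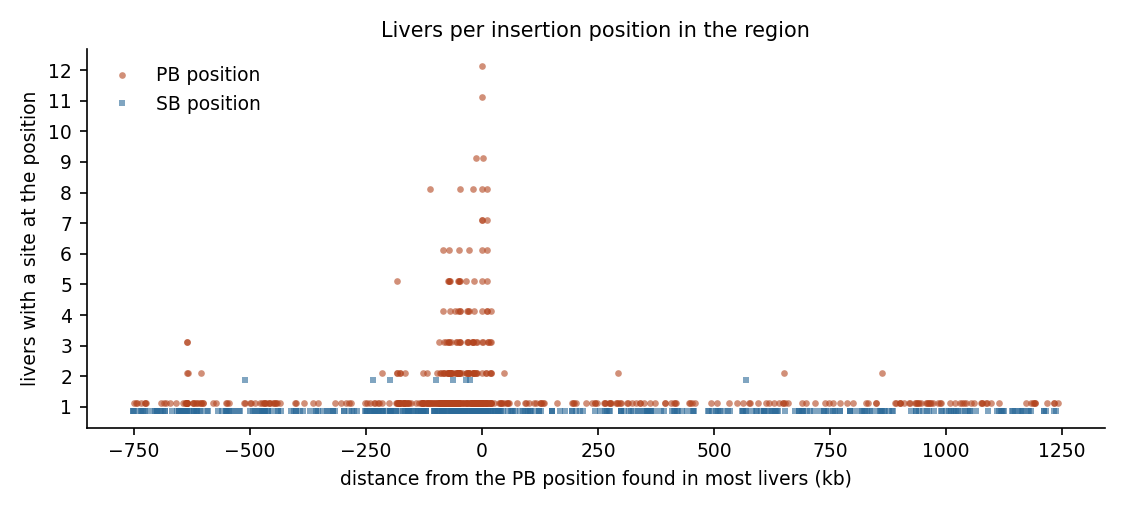
Number of livers with a site at each position of the region (y axis) against distance in kb from the PB position found in most livers, with PB positions as circles drawn slightly above the whole number and SB positions as squares drawn slightly below it. PB positions in 5 or more livers gather near the centre and reach 12 livers, and no SB position is found in more than 2.

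A PB record of the region was shared with another PB liver, at the same position and strand, in 44.4% ± 7.0 (SD, n = 17) of cases. In the flanks the share was 24.4% ± 5.0 (SD, n = 17) and over all other nuclear sites 29.3% ± 1.4 (SD, n = 17). Within the 90 kb stretch it was 65.2% ± 11 (SD, n = 17), from 40% to 81.8% over livers. With every liver thinned to 16364 sites, the size of the smallest PB library, the shares were 17.7% ± 11.4 in the region, 10.1% ± 4.8 in the flanks and 11.5% ± 0.6 elsewhere (SD, n = 17). The region stayed above the rest after thinning, at lower levels, with 39 of 219 region records shared. Reuse rises with density, and the region was picked for its PB density against SB. Thinning evens the size of the libraries and not the local density, so nothing is read from this order. Livers of a group enter each other's shares, so no test was made.

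SB sharing, again counted at the same position and strand, was low. Pooled over livers, 8 of 444 SB records of the region (1.80%) were shared with another SB liver, beside 2.09% of all other SB sites. The mean over livers was 5.34% ± 13.6 (SD, n = 13), which rested on SB liver 13, where 1 of 2 records was shared. Over SB livers 1 to 12 the mean was 1.44%. In the 90 kb stretch 0 of 73 SB records were shared at the same position and strand. With strand ignored, 6 of the 73 lay at positions found in 2 livers. Those were 3 positions, each with both strands.

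Both strands were used about equally. The 962 PB records were 484 minus and 478 plus, and the mean minus share was 49.1% ± 6.9 (SD, n = 17), from 33.3% to 61.5% with a median of 51.2%. In the flanks the PB minus share was 52.1% ± 4.5 (SD, n = 17). The difference within livers was -2.99 ± 8.56 percentage points (SD, n = 17), above 0 in 8 of 17 livers, and did not pass a two-sided sign-flip permutation test (p = 0.166, 0.418 adjusted over the 5 tests of strand and support). SB records were 234 minus and 210 plus, with a difference from the flanks of -4.39 ± 17.3 points (SD, n = 13), above 0 in 5 of 13 livers (permutation p = 0.428, adjusted p = 0.518). The lowest SB value, 0% minus, came from SB liver 13 with its 2 records.

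PB positions hit in several livers were mostly hit in both orientations. Of the 145 positions in at least 2 livers, 97 had records on both strands, and of the 31 in at least 5 livers, 29 did. In 43 cases a PB liver had both strands at 1 position, 39 of them in the 90 kb stretch, against 1 such case in SB. Whether a pair of strands in 1 liver is 2 insertions cannot be told from the site lists, and such pairs are counted in the numbers above. With both strands used about equally, a position with several records is likely to show both. Nothing is read from these numbers.

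Column 4 of each liver's list gives a whole number per site, called support here, of at least 3 in every list. What it counts is not given in the sources used here, so the tests use only its ratio within a liver. Pooled over livers, region sites had a median support of 47 in PB, from 3 to 708, and of 50 in SB, from 3 to 332. Livers differ in this number, with medians over all nuclear sites from 17 to 160 in PB and 34 to 87 in SB. The pooled values are therefore not compared. Within PB livers the median support in the region was close to that of all other sites, with a mean log2 ratio of 0.02 ± 0.13 (SD, n = 17), above 0 in 7 of 17 livers (sign-flip permutation p = 0.518, adjusted p = 0.518). In SB livers the mean log2 ratio was 0.15 ± 0.42 (SD, n = 13), above 0 in 9 of 13 livers (permutation p = 0.178, adjusted p = 0.418). SB liver 13 stood at 1.48 with 2 sites, and over SB livers 1 to 12 the mean was 0.04. The ratios of PB and SB differed by -0.13, which did not pass a two-sided permutation test (p = 0.251, adjusted p = 0.418). These tests cover the whole region and detected no shift in support. In the 90 kb stretch alone the mean log2 ratio to sites outside the region was 0.07 ± 0.12 (SD, n = 17) in PB. In the SB livers with a site there it was -0.11 ± 0.53 (SD, n = 12). Neither value of the stretch was tested.

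Some single sites were well supported. The site at chr7:73258337-73258340 on the minus strand had a support of 708 in PB liver 1, the highest of the 69683 sites in that liver, whose median was 87. The same position had 102 on the plus strand of that liver and between 4 and 248 in its other records, with a median of 84 over all 19. By the number itself, the next PB site was chr7:73263087-73263090 in PB liver 17, with a support of 430 (rank 29 of 16870). It was followed by chr7:73187012-73187015 in PB liver 2, with 298 (rank 83 of 70384). Support at the position found in most livers ran from 17 in PB liver 5 to 253 in PB liver 3, and 9 of its 13 records were above the median of their liver. At chr7:73243910-73243913, found in 9 livers, none of the 9 records was above its liver's median. Frequent positions were therefore not uniformly well supported.

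By the number itself and not by rank, the best supported SB site was chr7:72746035-72746036 in SB liver 13 with 332 (rank 148 of 4893). Next were chr7:73688425-73688426 in SB liver 4 with 189 (rank 1348 of 34929) and chr7:73826892-73826893 in SB liver 2 with 185 (rank 307 of 43729). All 3 lie outside the dense PB stretch.

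PB livers 13 to 17 are not in the submitters' merged tables, which cover livers 1 to 12, and the labels do not say how they differ. All 5 were shallower, with 16364 to 40598 nuclear records against 66528 to 124238 in livers 1 to 12. Their region density was 9.43 ± 2.08 (SD, n = 5), from 6.40 to 11.6, against 7.68 ± 1.27 (SD, n = 12), from 5.66 to 10.2, in livers 1 to 12. The log2 difference was 0.28 and the groups overlapped (two-sided exact permutation test, p = 0.0688, where the smallest possible p is 0.000162). Leaving out PB liver 14 gave 0.41 (exact permutation p = 0.0104) and leaving out PB liver 2 gave 0.32 (exact permutation p = 0.0343), while leaving out PB liver 16 gave 0.20 (exact permutation p = 0.207). The call thus turned on single livers. With every PB liver thinned to the smallest library the log2 difference was 0.24 (exact permutation p = 0.143). Drawing records at random leaves a liver's expected density unchanged, so this value is no control for the lower depth of livers 13 to 17. In the 90 kb stretch the densities were 5.63 ± 0.94 (SD, n = 5) and 4.44 ± 0.70 (SD, n = 12), given without a test.

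The place of the PB records was alike in both sets of livers. The 10 fullest steps of livers 1 to 12 held 536 of their own 844 records (63.5%), and they held 77 of the 118 records of livers 13 to 17 (65.3%), from 47.4% to 72.2% in single livers. The same steps held 17.1% of SB records. Over the 200 steps the mean densities of the 2 sets of PB livers had a Pearson r of 0.93 and a Spearman rho of 0.38, and those of PB and SB had 0.37 and 0.25. These are across steps of 1 region and carry no p. The Pearson value is carried by the few dense steps, as the lower rank correlation shows. At single positions, 64 of the 118 records of livers 13 to 17 (54.2%) lay where livers 1 to 12 had one, against 56 of 188 (29.8%) in the flanks. Such overlap rises with local density, and the region was picked for its PB density, so nothing is read from this contrast.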

How the data were processed

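Insertion sites of 17 PB and 13 SB livers were taken from the per-liver site lists. Per the submitters' processing notes, reads were trimmed with cutadapt and aligned with BWA to GRCm39; versions and the site filter are not given in the sources used here. Column 4 of the deposited per-liver lists holds another unit, a whole number per site whose meaning is not stated. In the merged tables of livers 1 to 12, column 4 is a count deposited by the authors, which at each of the 525 PB and 434 SB positions of the region equalled the records summed over those livers and both strands. Such lists depend on the enrichment PCR and on the unstated filter, and a site in few cells can be missed in a shallow library.

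Members, steps and lists were chosen with earlier results of these data known. Positions are printed 1-based. Records per 10000 nuclear sites (mitochondrial records left out) gave the density, and log2 values used a pseudocount of 0.1. Named were the 5 PB and 3 SB positions in most livers, the 5 densest PB steps of each size and the 3 densest SB steps of 10 kb. Named too were the 3 sites per group with the highest support number, whatever the liver. Windows of 100 kb were fitted with limma 3.58.1 (voom, total nuclear sites as library size, Benjamini-Hochberg), with edgeR 4.0.16 as an alternative. Sign-flip and permutation tests used 100000 resamples, or full enumeration where called exact. Replicates are livers labelled separately. PB and SB livers share numbers. Over 13 pairs and 2578 windows of 1 Mb the deviations of same-numbered livers correlated at 0.02 to 0.18. Of these pairs, 6 were above a cutoff of 0.1. Because 0 of 13 were closest to their own number, livers were not paired. Alternatives covered scaling, filters, window size, support, shared positions and left-out livers. No sequence is printed, since no genome of this build was used.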

Additional observations from a re-analysis of the deposited data

How the results depend on the processing

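Of 102 alternative values, 83 were like the main value. For counts of windows this means a count equal or close to the main count. For all other results it means the same direction, and the same side of the threshold or a value within the spread between livers. That spread was wide for some results: 47.8 percentage points for the share of the PB excess and 13.6 for reuse in SB. SB reuse of 1.44% in livers 1 to 12 thus counts as like 5.34%, and for such results the label says little. The region's log2 PB to SB difference in density, 0.83, fell to 0.43 when positions of more than 1 liver were left out and -0.20 without the 90 kb stretch. That last sign follows from how the stretch was cut, to hold all of the net difference; this alternative and leaving out PB liver 1 for support were chosen after seeing the data. The count of 100 kb windows of the region higher in PB, 2, was 1 with windows of 1 Mb, which divide the region differently. The count higher in SB, 1, was 2 with TMM scaling, 3 in livers 1 to 12 only, and 0 with a mean of at least 2 sites, windows of 1 Mb or 50 kb, a support minimum of 10, without SB liver 13, or without positions in more than 1 liver; the cause was not tested. With edgeR's quasi-likelihood test 2 windows of the region were called for PB and 1 for SB. The PB log2 support ratio, 0.02, was -0.017 without positions in more than 1 liver, with neither past the threshold. Leaving out 1 PB liver at a time moved the log2 difference of PB livers 13 to 17 against 1 to 12 from 0.20 to 0.41. The share of the PB excess in the top 10 steps was 63.2% in 1 kb steps, which cover less length. Reuse in PB, 44.4%, was 17.7% in thinned livers and 55.5% with strand ignored, and reuse in SB was 0% in thinned livers, where 22 records remained.

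With the replicate number as a block, which pairs livers that share only a number, the density difference was 0.78, the PB to SB difference in support ratio was -0.14, and 3 windows of the region were higher in SB and 2 in PB. Without SB liver 13, which had 2 records in the region, the density difference was 0.82.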
